A study of Mus musculus with 9 samples.

Results

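The 5p arms of miR-23, miR-24 and miR-27 are 6 of the 1052 mature miRNAs kept from the count table: miR-23a-5p, miR-27a-5p and miR-24-2-5p from one genomic cluster, and miR-23b-5p, miR-27b-5p and miR-24-1-5p from its paralog. They were chosen by name, and all 6 names had a single row in the table. The row with the largest total was to be taken for a repeated name, and the names themselves were chosen with earlier results of these data known. Small RNA was sequenced from cells of the embryonic C57BL/6 mouse cortex (its lateral part, embryonic day 14.5), which had been dissociated and sorted by the endogenous fluorescence of 2 reporters, titled R and G, into 3 populations with 3 libraries each. Cells with neither reporter were taken as proliferating progenitors, cells with R but without G as differentiating progenitors, and all cells with G as newborn neurons. The labels give neither the reporter genes nor the number of embryos per library, and do not say that the libraries came from separate litters or sorts, so the p-values measure the spread between these libraries, which may be technical. Proliferating progenitors were gated by the absence of signal, a gate that any unlabelled cell of the tissue also meets. Library totals over the kept rows were 821155 to 1323826 counts in proliferating progenitors, 1131750 to 1490379 in differentiating progenitors and 1067320 to 3856484 in neurons. A count of 0 allows up to 3 counts, which is 0.772 to 3.93 CPM (counts per 1000000, scaled by TMM factors) depending on the library, and intervals given here cover counting error only.

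A miRNA hairpin is cut into a duplex whose strands, the 5p and the 3p arm, are loaded unequally into Argonaute, where the loaded strand guides repression of mRNAs that pair with its seed, bases 2 to 8. In miR-23, miR-24 and miR-27 the 3p arm is the usual guide, and the 5p arm is the strand more often discarded. Vertebrates carry both clusters, in each of which the hairpins lie close together and are thought to come from a common primary transcript, and these miRNAs are known for roles in endothelial cells, in blood cell development and in neural cells. The 3p arms of these hairpins were not analysed here.

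The mature sequences are shown because they differ between the paralogous loci, and so let counts be assigned to a cluster, while the 3p sequences differ little or not at all in the miR-24 and miR-27 pairs. RefSeq gives the same miR-24-3p sequence for both mir-24 hairpins, and miR-27a-3p and miR-27b-3p are identical at 20 of 21 positions (C19U). In the 6 mature 5p sequences, from RefSeq on GRCm38.p6 and written 5′ to 3′, capitals mark the seed.
miR-23a-5p: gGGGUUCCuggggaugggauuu
miR-23b-5p: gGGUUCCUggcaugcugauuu
miR-27a-5p: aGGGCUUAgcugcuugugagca
miR-27b-5p: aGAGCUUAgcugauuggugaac
miR-24-2-5p: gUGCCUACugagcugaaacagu
miR-24-1-5p: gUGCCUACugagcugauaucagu
Only the miR-24 pair shares a seed, and these arms are identical over their first 16 bases. The seeds of miR-27a-5p and miR-27b-5p differ at a single position, G3A, counted from the 5′ end with the base of miR-27a-5p first. The miR-23 seeds are the same run of bases shifted by 1. Apart from the miR-24 pair, no other mature mouse miRNA among the 1679 names in the RefSeq table has any of these seeds.

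The hairpins of miR-23a, miR-27a and miR-24-2 lie within 404 bases on the plus strand at chr8:84208518-84208921. In GENCODE M21 no protein-coding gene covers them, and mir-24-2 overlaps the lincRNA Gm26532 by 2 bases at its end. The hairpins of miR-23b, miR-27b and miR-24-1 lie within 792 bases at chr13:63300484-63301275, inside the protein-coding gene 2010111I01Rik on the same strand and inside Fancc on the opposite strand. There mir-23b is intronic in all 9 overlapping transcripts of 2010111I01Rik, while an exon covers mir-27b in 1 of 9 transcripts and all or part of mir-24-1 in 4 of 11, none of them annotated as protein-coding transcripts. The 2 hairpins whose 5p arms carried most counts of the first cluster follow, with the 5p arm in capitals (mir-27a at chr8:84208672-84208758 and mir-24-2 at chr8:84208815-84208921, plus strand, GRCm38.p6, RefSeq).
mir-27a: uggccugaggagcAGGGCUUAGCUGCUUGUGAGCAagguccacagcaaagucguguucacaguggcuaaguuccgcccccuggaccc
mir-24-2: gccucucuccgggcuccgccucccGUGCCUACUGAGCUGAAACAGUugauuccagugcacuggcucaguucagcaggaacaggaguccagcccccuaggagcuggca

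Along the lineage miR-27a-5p fell at both steps and miR-24-2-5p was lower in neurons than in either progenitor population, whereas miR-27b-5p did not pass the test in any comparison. The other 3 arms stayed at or under 3 counts in all 9 libraries. In the low-count filter, set at about 7.55 CPM in at least 3 libraries, miR-24-2-5p passed through all 9 libraries, miR-27b-5p through 5 spread over the populations, and miR-27a-5p through the 3 proliferating progenitor libraries and replicate 1 of the differentiating progenitors. miR-27a-5p was therefore tested because of the population in which it is high, so the number of members called says nothing about the 6 as a set. Because of how the members were chosen, the adjusted p-values, taken over all 188 tested miRNAs, describe these libraries and are no independent evidence. In these bulk libraries fewer cells of a type and less RNA per cell cannot be told apart.

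mmu-miR-27a-5p was counted 56, 53 and 13 times in replicates 1 to 3 of the proliferating progenitors. Differentiating progenitors gave 19, 4 and 4 counts, and neurons 2, 2 and 0. Scaled by TMM factors, this was 42.5, 54.2 and 17.0 CPM, then 13.6, 3.52 and 2.85 CPM, then 0.515, 1.06 and 0 CPM. The populations did not overlap in any comparison (32.4%, 49.5% and 64.4% of the tested miRNAs did not overlap at the first step, at the second and over both), although replicate 3 of the proliferating progenitors lay near replicate 1 of the differentiating ones. The means were 37.9 ± 19.0, 6.65 ± 6.00 and 0.523 ± 0.528 CPM (SD, n = 3). At the first step the pooled level of miR-27a-5p was 5.82-fold lower (95% exact interval 3.81 to 9.18). The edgeR estimate, which takes in the spread between libraries, was a log2 change of -2.50 with an SE of 0.49, or 5.64-fold. Its adjusted p was 0.00160 (edgeR quasi-likelihood test with Benjamini-Hochberg adjustment). miR-27a-5p was the only one of the 3 tested members called there, against 16.0% of all 188 tested miRNAs called in either direction. Only 5 miRNAs had a larger fall. Without replicate 1 of the differentiating progenitors the first-step log2 change was -3.58.

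From differentiating progenitors to neurons the pooled TMM-scaled level of miR-27a-5p was 12.1-fold lower (95% exact interval 4.23 to 47.7, from 27 and 4 counts). The edgeR log2 change was -3.42 with an SE of 0.83, or 10.7-fold (edgeR adjusted p = 0.00310). With each neuron library set at 3 counts, the ratio of mean CPM is 4.28-fold. This is not a bound, since the 2 counts in neuron replicates 1 and 2 each allow up to 7.22 (95% interval). The call rested on replicate 1 of the differentiating progenitors: without it the log2 change was -2.29 with an edgeR adjusted p of 0.0501, and that was the highest adjusted p among the alternatives, the lowest being 1.52e-06 (no filter on low counts). Over the whole lineage the pooled level of miR-27a-5p was 70.6-fold lower in neurons (95% exact interval 26.9 to 263, from 122 and 4 counts). The edgeR log2 change was -5.91 with an SE of 0.66, or 60.2-fold (edgeR adjusted p = 8.79e-07). With each neuron library set at 3 counts the ratio of mean CPM is 24.4-fold, again not a bound. In neuron replicate 3, where the count was 0, the level of 3 counts is 2.31 CPM.

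mmu-miR-24-2-5p, from the same cluster, was counted 47, 42 and 34 times in proliferating progenitors. Differentiating progenitors gave 34, 35 and 28 counts, and neurons 41, 25 and 13. In TMM-scaled CPM the libraries had 35.6, 42.9 and 44.5, then 24.3, 30.8 and 19.9, then 10.6, 13.2 and 9.99. The raw counts of neuron replicate 1 are high because that library is the largest, and the scaled populations did not overlap. The means were 41.0 ± 4.74, 25.0 ± 5.48 and 11.2 ± 1.71 CPM (SD, n = 3). Its first-step log2 change of -0.71 (SE 0.26) did not pass (edgeR adjusted p = 0.0692), and it passed in 1 of 19 alternatives, without neuron replicate 2 (adjusted p = 0.0428). At the second step miR-24-2-5p had a log2 change of -1.14 with an SE of 0.27 (edgeR, adjusted p = 0.00247). Over the whole lineage the change was -1.85 with an SE of 0.26 (edgeR, adjusted p = 1.42e-05). Both calls held in all 19 alternatives. miR-24-2-5p and miR-27a-5p were the tested members called in each of these comparisons, in which 46.3% and 56.4% of all tested miRNAs were called.

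mmu-miR-27b-5p, the paralog of miR-27a-5p, was counted 9, 12 and 9 times in proliferating progenitors. Differentiating progenitors gave 18, 11 and 6 counts, and neurons 31, 12 and 6. In TMM-scaled CPM this was 6.82, 12.3 and 11.8, then 12.9, 9.69 and 4.27, then 7.98, 6.33 and 4.61. The 3 populations overlapped. Its log2 changes were -0.16 (SE 0.42) at the first step, -0.41 (SE 0.39) at the second and -0.57 (SE 0.41) over both, with edgeR adjusted p-values of 0.808, 0.427 and 0.241. An approximate 95% interval of the whole-lineage change ran from -1.37 to 0.22, which includes 0 as well as falls beyond 2-fold.

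**Figure D1:**
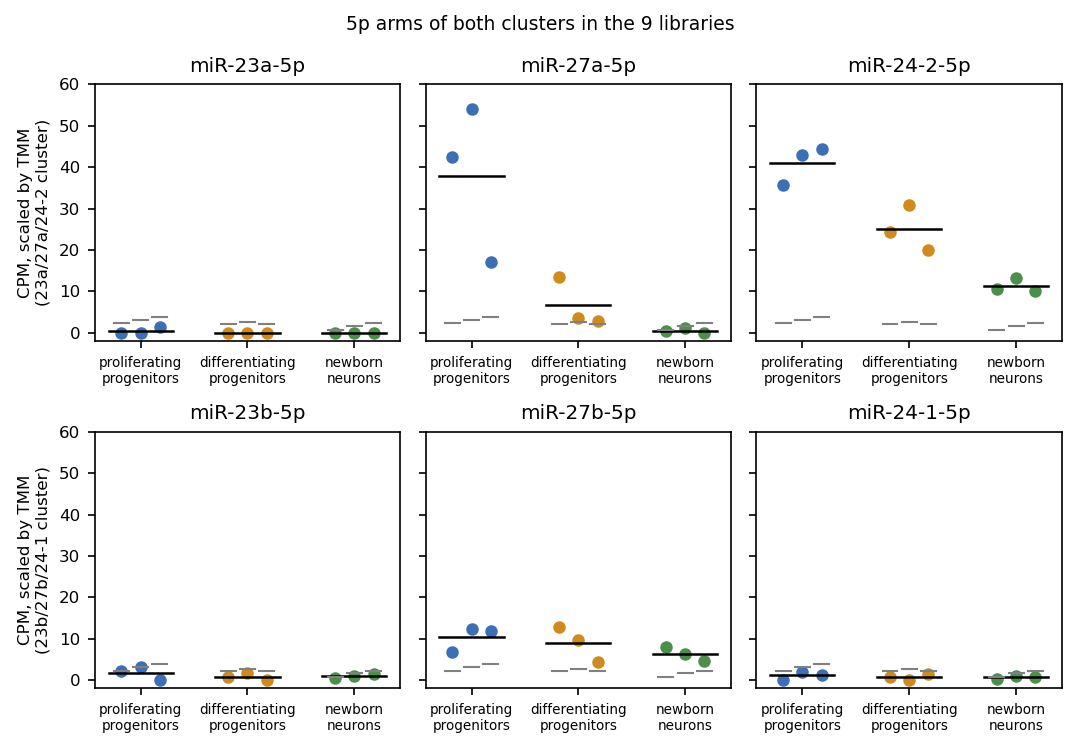
TMM-scaled CPM of the 6 arms in each library, by population, with black lines at the means of 3 libraries and short grey lines at the level of 3 counts in each library. miR-27a-5p and miR-24-2-5p step down along the lineage, miR-27b-5p overlaps between the populations, and miR-23a-5p, miR-23b-5p and miR-24-1-5p do not rise above 3 counts.

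The remaining arms were at the floor. mmu-miR-23a-5p had a single count, in replicate 3 of the proliferating progenitors, and 0 in the other 8 libraries. Pooled over a population, the 95% interval of 0 counts reaches 0.936 CPM in differentiating progenitors and 0.521 CPM in neurons. The pooled level of 3 counts is 0.761 and 0.424 CPM. mmu-miR-23b-5p was counted 3, 3 and 0 times in proliferating progenitors, 1, 2 and 0 times in the next population and 2 times in each neuron library. For mmu-miR-24-1-5p the counts were 0, 2 and 1, then 1, 0 and 2, then 1, 2 and 1. No difference was detectable at this depth: fitted without the filter, none of the 9 tests of these 3 arms was called by edgeR, the lowest adjusted p being 0.449, and none had an unadjusted p under 0.05 (lowest 0.21). DESeq2 called none of them either: its adjusted p was 0.731 or higher for miR-23b-5p in both comparisons with neurons, and it gave none in the other tests of these arms.

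**Figure D2:**
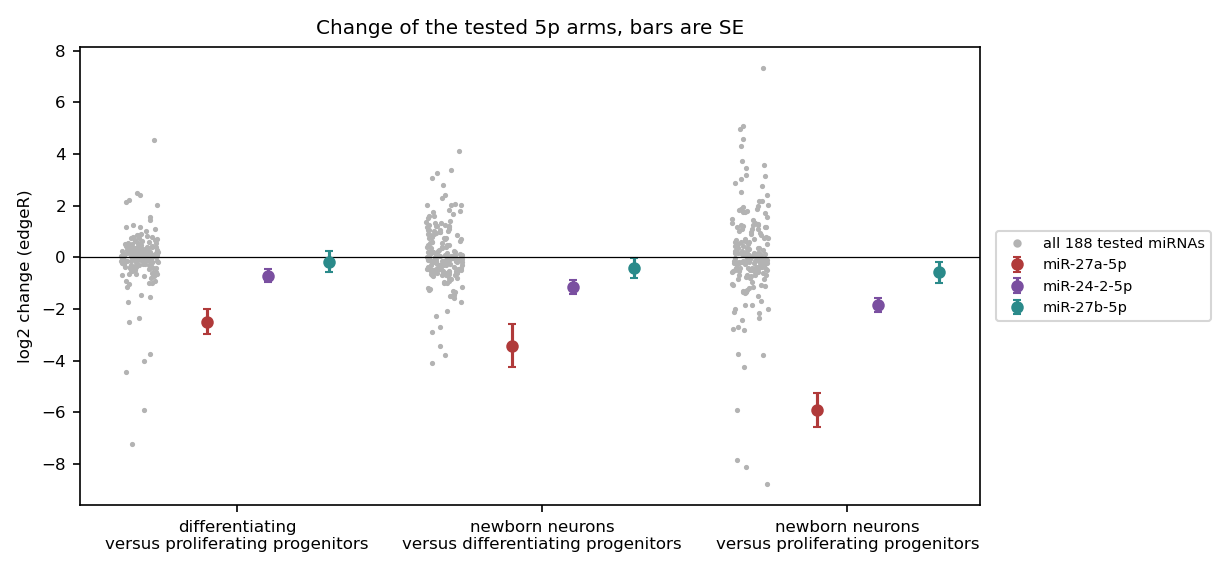
Log2 change of the 3 tested arms in each comparison (coloured points, bars are SE) beside the changes of all 188 tested miRNAs (grey points, spread sideways at random). miR-27a-5p lies near the lower end of the grey points in each comparison, with -2.50, -3.42 and -5.91, while miR-27b-5p lies near 0 with -0.16, -0.41 and -0.57.

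Summed over its members, the 23a/27a/24-2 cluster gave 79.3 ± 17.2, 31.7 ± 7.88 and 11.8 ± 2.21 CPM (SD, n = 3) in proliferating progenitors, differentiating progenitors and neurons. The 23b/27b/24-1 cluster gave 13.2 ± 4.14, 10.5 ± 4.37 and 8.04 ± 0.982 CPM. These sums are a description without a test, as are the shares that follow. The first cluster held 89.6%, 84.8% and 82.8% of the 5p counts of both clusters in the proliferating progenitor libraries, then 72.6%, 75.0% and 80.0% in the differentiating ones, and neurons had 55.8%, 62.8% and 59.1%. The populations did not overlap in this share, but the 95% Wilson intervals of single libraries were wide, from 71.1% to 90.4% in proliferating replicate 3, which had 58 counts, and from 38.7% to 76.7% in neuron replicate 3, which had 22. The mean share moved by -9.85 percentage points at the first step and -16.6 at the second.

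**Figure D3:**
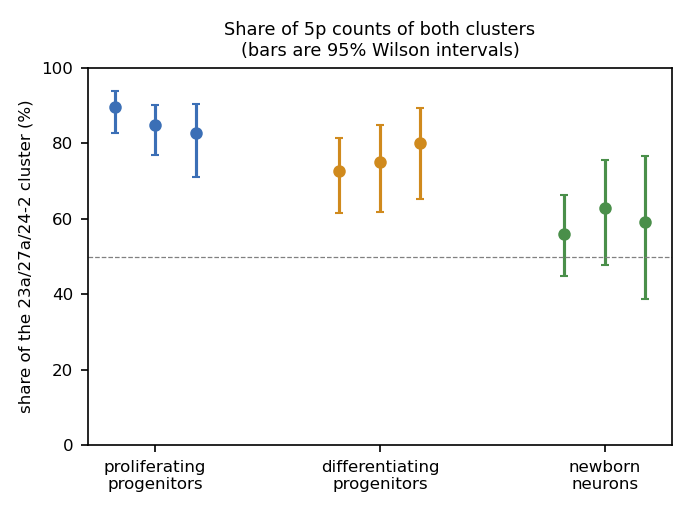
Share of the 23a/27a/24-2 cluster in the summed 5p counts of both clusters, in percent, for each library with its 95% Wilson interval, and a dashed line at equal shares. The share is 82.8% to 89.6% in proliferating progenitors, 72.6% to 80.0% in differentiating progenitors and 55.8% to 62.8% in neurons.

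The shift in share depended on the miR-27 arms. Without both miR-27 arms the mean share of the first cluster moved by 0.60 percentage points at the first step, opposite in sign, and by -7.24 at the second. These shares are imprecise, since the second cluster then held only miR-23b-5p and miR-24-1-5p, each at or under 3 counts in every library. Within the first cluster miR-27a-5p gave 49.6% of the 246 counts in proliferating progenitors, 21.8% of 124 in differentiating progenitors and 4.82% of 83 in neurons, and miR-24-2-5p gave nearly all the rest. Within the second cluster miR-27b-5p gave 76.9%, 85.4% and 83.1% of 39, 41 and 59 counts.

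The balance between paralogs differed by pair. Of the counts of both miR-27 5p arms, miR-27a-5p held 80.3% (95% Wilson interval 73.2% to 85.8%) in proliferating progenitors, 43.5% (31.9% to 55.9%) in differentiating progenitors and 7.55% (2.97% to 17.9%) in neurons. Of the counts of both miR-24 5p arms, miR-24-2-5p held 97.6% (93.2% to 99.2%), 97.0% (91.5% to 99.0%) and 95.2% (88.3% to 98.1%), with intervals that overlap. Its paralog miR-24-1-5p, at the floor, had only 3, 3 and 4 counts in these populations, too few to show a modest shift in this balance. The miR-23 pair had 16 counts in all, 15 of them of miR-23b-5p. Adapter ligation depends on the sequence of a small RNA, so a share between different sequences is a share of counts and not of molecules.

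A ratio of 2 arms in a library does not depend on how the library is scaled. The log2 ratio of miR-27a-5p to miR-27b-5p, with 0.5 added to both counts, was 2.57, 2.10 and 0.51 in the proliferating libraries. It was 0.08, -1.35 and -0.53 in the differentiating ones, and neurons had -3.66, -2.32 and -3.70. The value of neuron replicate 3 is set by the added 0.5 and is not a measured level, since miR-27a-5p had 0 counts there, which allow up to 3. With the values as computed no library of one population reached into another, and miR-27a-5p went from the more to the less counted paralog. The ratio differed among the 3 populations (exact permutation test of the between-population sum of squares, p = 0.00357, the smallest value the 1680 assignments allow; 0.0107 after Benjamini-Hochberg adjustment over 3 ratios). Without neuron replicate 3 the exact permutation p was 0.00714. Only arms past the low-count filter entered the ratios, and miR-27a-5p passed it mainly through the population in which it is high. The exact p-values of the ratios therefore describe these libraries and are no independent evidence of its fall. The ratio changed by -2.33 at the first step and -2.62 at the second, and each pair of populations gave p = 0.1, the smallest that a two-sided exact permutation of 3 against 3 libraries allows.

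Within the first cluster the log2 ratio of miR-27a-5p to miR-24-2-5p was 0.25, 0.33 and -1.35 in the proliferating libraries. It was -0.82, -2.98 and -2.66 in the differentiating ones, and neurons had -4.05, -3.35 and -4.75, the last again set by the added 0.5. Replicate 3 of the proliferating progenitors lay below replicate 1 of the differentiating ones, while the neurons lay apart from both progenitor populations. The ratio differed among the populations (exact permutation test, p = 0.0143, adjusted 0.0214), and without neuron replicate 3 the exact p was 0.05. Its pairs of populations gave exact p-values of 0.2 at the first step and 0.1 at the second. The log2 ratio of miR-24-2-5p to miR-27b-5p, across the clusters, averaged 1.98 ± 0.298, 1.55 ± 0.620 and 0.83 ± 0.372 (SD, n = 3), with an exact permutation p of 0.0821 (adjusted 0.0821). It passed an unadjusted threshold when replicate 1 or replicate 3 of the differentiating progenitors was left out (exact p = 0.025 and 0.0286). The ratios with miR-24-2-5p were added after the counts had been seen.

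**Figure D4:**
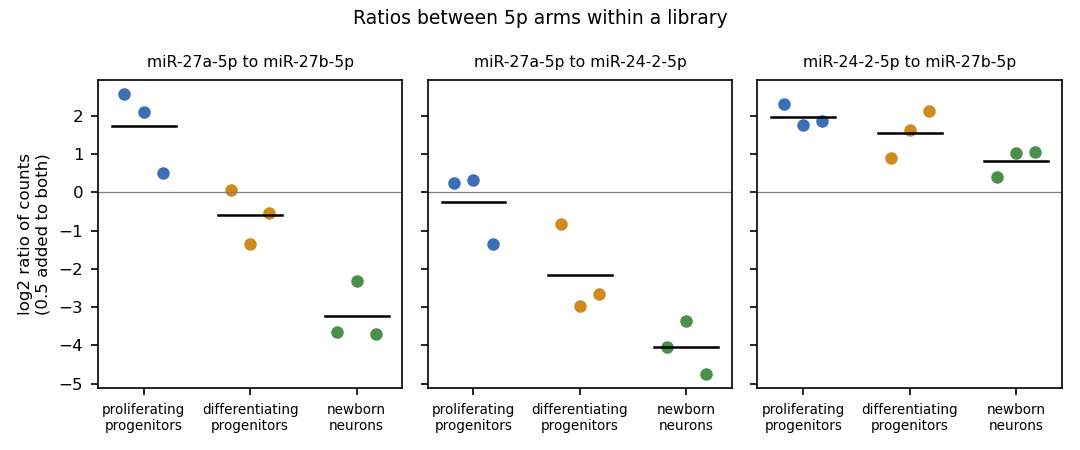
Log2 ratio of counts between the tested arms in each library, with 0.5 added to both counts and black lines at population means; in neuron replicate 3 miR-27a-5p had 0 counts, so its ratios there are set by the added 0.5. The ratio of miR-27a-5p to miR-27b-5p falls from a mean of 1.73 to -0.60 and -3.23 with no overlap, and that of miR-24-2-5p to miR-27b-5p stays above 0 in all 9 libraries.

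Among the 187 other tested miRNAs, the pattern closest to that of miR-27a-5p, by root mean square difference of centred log2 CPM over the 9 libraries, was that of miR-142a-5p, a miRNA of blood cells (0.65, where the median over all was 1.91). Its mean levels were 21.5, 1.24 and 0 CPM in the 3 populations in lineage order. Next came miR-92a-1-5p (0.77), a minor arm of the miR-17-92 cluster, with 18.6, 9.36 and 1.30 CPM, and miR-450b-5p (0.84), of an X-linked cluster, with 130, 44.8 and 8.79 CPM. miR-24-2-5p ranked at place 12 of 187 and miR-27b-5p at place 34. Closest to miR-24-2-5p were miR-32-5p (0.25), miR-378d (0.29) and miR-504-5p (0.29), where the median was 0.83, and closest to miR-27b-5p were miR-467e-5p (0.36), miR-363-5p (0.37) and miR-106b-5p (0.38), where the median was 0.63. All these distances share the same 9 libraries and scaling factors.

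The summed markers of other cell types were highest in proliferating progenitors, as miR-27a-5p was, but not every marker was. Of 7 haematopoietic miRNAs listed, 5 were in the table, all with a count, and their summed level was 47.1 to 60.3 CPM in proliferating progenitors, 20.7 to 37.0 in differentiating progenitors and 8.44 to 9.01 in neurons, where miR-142a-5p, miR-223-5p and miR-150-5p were at 0. Within this list miR-142a-5p was called lower at both steps, while miR-146a-5p went the other way at the first, with 5, 12 and 4 counts and then 13, 19 and 26 (log2 change 1.08, edgeR adjusted p = 0.0966), before it was called lower in neurons (-3.78, edgeR adjusted p = 1.80e-05). Of 3 erythroid miRNAs, 2 were in the table, miR-451a and miR-144-5p, with sums of 260 to 354, 0.881 to 2.86 and 0 to 2.31 CPM, and miR-144-5p was at 0 in neurons. Of 8 mural or mesenchymal miRNAs, 5 were in the table and 4 had a count, with sums of 437 to 579, 40.0 to 43.4 and 17.7 to 36.3 CPM, most of it miR-143-3p, while miR-214-5p was at 0 throughout and miR-143-5p at 0 outside the proliferating progenitors. Of 4 endothelial miRNAs, 3 were in the table and only miR-126a-5p had counts, at 18.4 to 26.2, 11.4 to 12.3 and 5.28 to 12.3 CPM, with miR-126b-5p and miR-126b-3p at 0 throughout.

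Within a population the order of 3 libraries is a description without a test, and several of the values compared lay close together. Among the proliferating progenitors the erythroid sum had the order of miR-27a-5p, with 330, 354 and 260 CPM in replicates 1 to 3, and so did the haematopoietic sum, with 47.8, 60.3 and 47.1 CPM. The mural sum did not have this order, with 437, 570 and 579 CPM. The endothelial sum, all of it miR-126a-5p, had the reverse order of miR-27a-5p, with 22.7, 18.4 and 26.2 CPM from 30, 18 and 20 counts. Among the differentiating progenitors miR-27a-5p was highest in replicate 1. In replicates 1 to 3 of this population the haematopoietic sum was 20.7, 37.0 and 25.6 CPM. The mural sum was 40.0, 40.5 and 43.4 CPM, and the endothelial sum 11.4, 12.3 and 12.1 CPM, from 16, 14 and 17 counts. These mural and endothelial values lay too close together to rank the replicates. The erythroid sum had 2.86, 0.881 and 2.85 CPM in replicates 1 to 3. The haematopoietic sum was mostly miR-146a-5p (13, 19 and 26 counts) and miR-155-5p (12, 21 and 9 counts) there, neither of them highest in replicate 1. miR-142a-5p had 3, 1 and 1 counts, too few to order these libraries. The part of these cell types in the fall of miR-27a-5p or miR-24-2-5p was not tested. As to the labelled cell types, the summed neuronal miRNAs (6 of 7 listed in the table, led by miR-7a-5p) were 4723 to 5851, 6960 to 8059 and 23686 to 28635 CPM. One of them, miR-129-5p, went against the sum and was called lower in all 3 comparisons (log2 -1.01, -0.68 and -1.69, edgeR adjusted p = 0.000875, 0.00639 and 7.92e-07). Of the 2 progenitor and cortex miRNAs in the table, miR-92b-5p was called lower in each comparison (log2 -0.60, -1.51 and -2.11, edgeR adjusted p = 0.0345, 1.71e-05 and 1.11e-07). The other, miR-9-5p, the main miRNA of the neural lineage, had log2 changes of -0.14, -0.08 and -0.22 that did not pass (edgeR adjusted p = 0.459, 0.603 and 0.101).

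**Figure D5:**
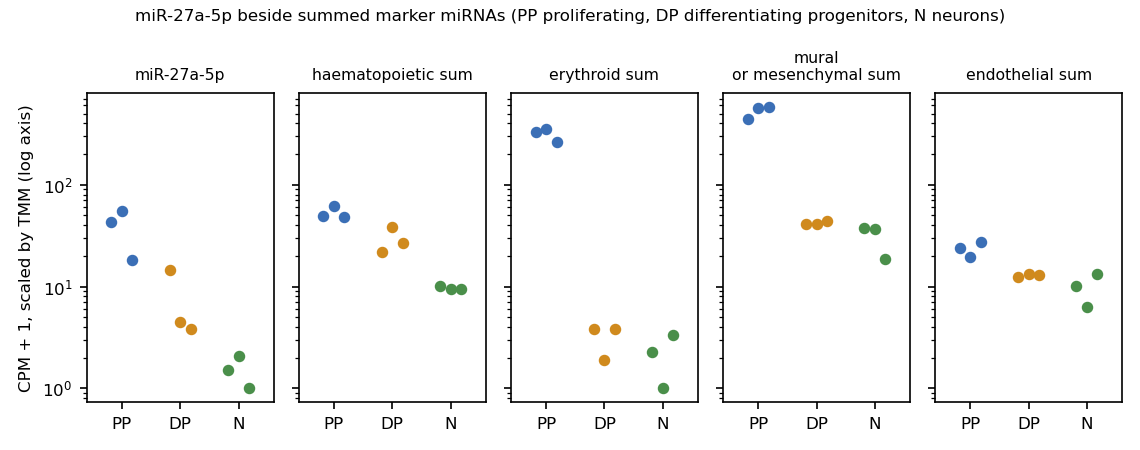
TMM-scaled CPM plus 1 on a log axis for miR-27a-5p and for the summed haematopoietic, erythroid, mural or mesenchymal and endothelial miRNAs in each library, by population. Each is highest in proliferating progenitors; the erythroid and mural sums are 10 or more times lower from the first step on, and miR-27a-5p and the haematopoietic and mural sums are lower again in neurons without overlap.

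Another mature miRNA in the table comes from these loci: miR-3074-5p is annotated on the minus strand of both mir-24 hairpins, and 20 of its 22 bases are the exact reverse complement of miR-24-3p. Its sequence is the same at both loci, so its rows cannot assign reads to a cluster, and whether the counting used strand is not given in the sources used here, so that reads of miR-24-3p and miR-3074-5p cannot be told apart.
miR-3074-5p: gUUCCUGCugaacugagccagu
It was counted 31, 23 and 11 times in proliferating progenitors. Differentiating progenitors gave 26, 23 and 25 counts, and neurons 33, 23 and 13. The scaled means were 20.5 ± 5.26, 18.9 ± 1.26 and 10.2 ± 1.83 CPM (SD, n = 3), and only the neurons lay apart. At the second step miR-3074-5p had a log2 change of -0.91 with an SE of 0.28 (edgeR, adjusted p = 0.0135), a call lost in 3 of 19 alternatives, and its first-step change of -0.15 (SE 0.28) did not pass (edgeR adjusted p = 0.753).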

How the data were processed

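One table was deposited by the authors, with raw counts for each miRNA row in each library, unscaled and unpooled as its values show. The submitters' processing notes name bcl2fastq 1.8.2, DESeq2 and the build mm10; aligner, counting tool, strand setting and miRNA release are not given in the sources used here. Of 1433 rows, 1211 carried an accession. The largest row per mature name was kept, and names with at least 50 counts that differed by at most 2% were merged, leaving 1052. Tests used edgeR 4.0.16 in R 4.3.3: filterByExpr, TMM factors, glmQLFit and glmQLFTest with all 9 libraries, Benjamini-Hochberg over 188 miRNAs, threshold 0.05. SEs were derived from the log2 change and F. The code was tested on simulated data. Ratios and intervals used SciPy 1.17.1. All 6 members, rows of the same hairpins, 6 marker lists and the 3 nearest patterns of each tested member were named; the members and lists were chosen with earlier results of these data known. DESeq2 1.42.0 was an alternative.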

Additional observations from a re-analysis of the deposited data

How the results depend on the processing

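For each called change of miR-27a-5p and miR-24-2-5p, direction and call held under other scalings, tools, filters and row rules and without any single library, except that miR-27a-5p at the second step was lost without replicate 1 of the differentiating progenitors (-2.29), which also moved its first-step change to -3.58 (-3.58 to -2.13 without 1 library). With only the compared populations fitted, miR-27a-5p at the second step and miR-27b-5p over the whole lineage failed the filter and gave no value. Without 1 library the log2 change of miR-27b-5p ran from -0.56 to 0.17 at the first step, where it turned positive without proliferating replicate 2 (0.013) or differentiating replicate 3 (0.17), and from -0.69 to 0.011 at the second, where it did so without differentiating replicate 1. The calls over all miRNAs ran from 18 to 37 at the first step around 30, lowest without proliferating replicate 1.

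The change from proliferating progenitors to neurons in the log2 ratio of miR-27a-5p to miR-27b-5p was -4.95. It ran from -5.56 (without proliferating replicate 3) to -4.53 without 1 library, and was -4.46 with 1 and -5.88 with 0.1 added to the counts. That of miR-27a-5p to miR-24-2-5p ran from -4.34 to -3.44 without 1 library, and that of miR-24-2-5p to miR-27b-5p from -1.27 to -0.94. Without both miR-27 arms only arms at the floor remained in the second cluster. The share of the 23a/27a/24-2 cluster then moved by 0.60, -7.24 and -6.65 percentage points at the first step, the second step and over both. Without both miR-24 arms, added after seeing the data, it moved by -35.9, -31.8 and -67.6. Both follow from which arm dominates the sums.

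Whether the replicate numbers pair the libraries is not settled. Of the same-numbered pairs, 4 of 9 had correlated deviations over 0.1 (-0.068 to 0.25), and 10 of 18 best matches had the own number. Same-numbered pairs with differentiating progenitors had 0.021 to 0.25, and those of proliferating progenitors with neurons -0.068 to -0.061. Differently numbered pairs had -0.256 to 0.12. With a replicate block 33, 88 and 108 miRNAs were called in place of 30, 87 and 106, no call of a member changed, and the ratio of miR-27a-5p to miR-27b-5p gave an exact p of 0.0278, the smallest possible. Depth limits miR-23a-5p to upper bounds in the 8 libraries where it had 0 counts. miR-23b-5p and miR-24-1-5p were detected, with 15 and 10 counts in all, too few at this depth to show a difference.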
